A study of Mus musculus with 12 samples.

Results

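The genes described here are Stmn2, Stmn4, Tubb3, Tac2 and Cd24a, 5 of the 10749 Ensembl genes listed for sorted cells of the mouse dentate gyrus and grouped under the name of immature neuron genes. They were picked by name after their levels in these same libraries had been seen, so their differences between the populations are given as a description and without a test. All 5 were in the table and passed the filter on low values, which left 8362 genes. Every library came from mice 8 weeks old that carried LPA1-GFP, a transgene (Tg(Lpar1-EGFP)GX193Gsat) in which green fluorescent protein (GFP) reports the gene of the lysophosphatidic acid receptor LPA1; the line began on a mix of FVB/N and Swiss Webster and was rederived into C57BL/6. No population came from mice without the transgene, and no treatment was given in the labels. The stem population was positive for GFP, the growth factor receptor EGFR and the membrane glycoprotein Prominin-1. The progenitor population pooled the other 3 combinations of GFP-positive cells (EGFR alone, Prominin-1 alone, or neither), and the niche population was GFP-negative. Each had n = 4 libraries of polyadenylated RNA, amplified from 1000 sorted cells. What a replicate stood for, 1 mouse or several pooled, is not in the labels, and the spread between libraries may be partly technical.

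Immature neurons arise in the dentate gyrus from dividing precursors and extend an axon and dendrites while they join the granule cell layer. Growing neurites depend on microtubules, which are polymers of alpha- and beta-tubulin. Stathmins bind free tubulin and favour disassembly of the polymer. Stmn2 encodes the neuronal, membrane-bound stathmin of growth cones, and Stmn4 encodes another neuronal stathmin. Tubb3 encodes the beta-III tubulin used as a marker of neurons. Tac2 encodes the precursor of the tachykinin peptide neurokinin B, and Cd24a encodes a small surface glycoprotein found on young neurons, ependymal cells and several kinds of blood cell.

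Starts of transcription were taken from RefSeq, and the promoter table used held an entry for Tubb3 and Tac2 among the 5 genes. Both were higher in every progenitor library than in every stem and niche library, so their promoters are shown. The windows run 5′ to 3′ on the plus strand of GRCm38.p6 and cover the 250 bases before the RefSeq start, Tubb3 at chr8:123411303-123411552 and Tac2 at chr10:127724228-127724477. For Tac2 the gene start in GENCODE, from which gene positions are given below, is the same base. For Tubb3 it lies 129 bases before the RefSeq start, so only the 121 bases that precede both starts are printed. Capitals mark the motif matches found.
Tubb3: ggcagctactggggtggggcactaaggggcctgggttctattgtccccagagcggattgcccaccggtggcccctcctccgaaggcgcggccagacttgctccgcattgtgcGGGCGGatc
Tac2: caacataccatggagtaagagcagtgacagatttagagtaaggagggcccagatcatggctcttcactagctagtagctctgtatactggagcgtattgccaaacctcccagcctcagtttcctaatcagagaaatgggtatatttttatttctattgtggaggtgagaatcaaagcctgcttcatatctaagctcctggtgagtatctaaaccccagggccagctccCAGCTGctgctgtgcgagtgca

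The windows of 250 bases differed in base composition, with 68.0% G and C for Tubb3 and 47.2% for Tac2. In the Tubb3 window GGGCGG stood with its first base 138 bases before the RefSeq start, upstream of both starts. A second GGGCGG, 46 bases before the RefSeq start, and CCAAT on the other strand, read as ATTGG, 77 bases before it, lay inside the gene as GENCODE has it. In the Tac2 window CAGCTG stood 22 bases before the start, where it is at the same time a match to the more general CANNTG. Of 32851 such windows, 32.7% held GGGCGG, 33.8% held CCAAT, 13.0% held CAGCTG and 66.2% held CANNTG on either strand. TATAAA (12.4% of windows), TTCAGCACC (0.301%) and GGACAGCG (0.992%) were searched on both strands and were not in either window. The promoters of these 2 genes shared none of the motifs searched.

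The libraries held 7597256 to 22854036 reads, with 8037 to 9700 genes above 0. Values are given as RPKM (read counts divided by exon length and by the library total), after the libraries were brought to a common scale by trimmed means of M-values (TMM). Niche replicate 1 stood apart, with 33.0% of its reads in the 2 alpha-globin genes, against 2.62% to 10.9% in the other niche libraries and 0.02% to 0.228% in stem and progenitor. Progenitor replicate 1 had 8455 genes above 0, against 9608 to 9700 in the other progenitor libraries. Values without these 2 libraries are given where they matter. No pair of replicates agreed within sampling noise (the lowest chi-square over its degrees of freedom was 38.9). No molecular identifiers are named for the amplified RNA, so read numbers speak of counting error only. In these bulk libraries fewer cells of a type and less RNA per cell cannot be told apart.

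All 5 genes were higher in every progenitor library than in every stem library. Stem means were 1.04% (Stmn2), 1.71% (Tac2), 3.80% (Cd24a), 5.01% (Stmn4) and 5.87% (Tubb3) of the progenitor means. Such a separation in favour of progenitor was found for 13.2% of all genes tested, and the 5 genes were chosen for it. Against niche, 3 of the 5 (Stmn2, Tubb3 and Tac2) were higher in every progenitor library, as were 8.81% of all genes. Stem lay below niche in every library for 4 of the 5, all but Tac2, as for 10.4% of all genes. Ordered by the difference between progenitor and stem on the log2(RPKM + 1) scale, Stmn2 was number 1, Tac2 number 2, Cd24a number 4, Stmn4 number 9 and Tubb3 number 10 of 8362 genes. Against niche they spread out, from Tac2 at number 4, through Tubb3 at 106, Cd24a at 229 and Stmn2 at 1156, to Stmn4 at 5845. The genes were chosen for their rise over stem, so their high places there were set by that choice. The spread of places can therefore not be compared between stem and niche.

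**Figure D1:**
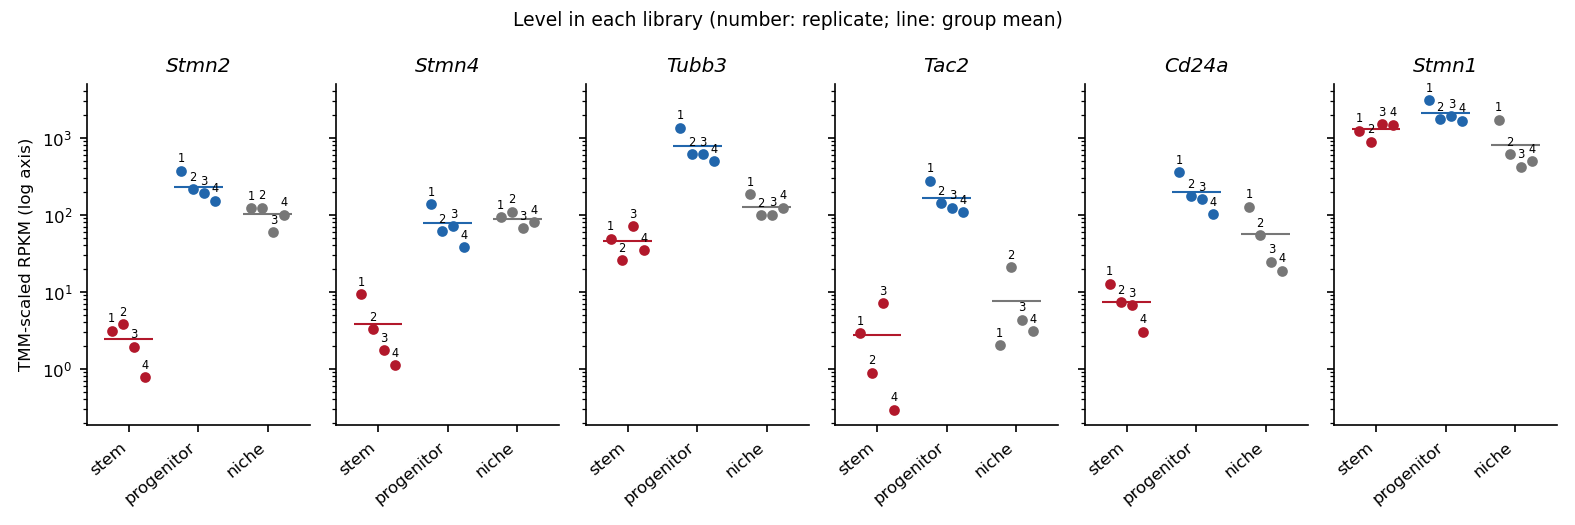
TMM-scaled RPKM on a log axis in each of the 12 libraries, 1 panel per gene, for the 5 genes and for Stmn1, a related stathmin. Points are libraries with their replicate numbers and lines are group means. Stem lies below progenitor in every library for the 5 genes and for Stmn1, whose niche libraries overlap with both other populations.

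Stmn2 (ENSMUSG00000027500, chr3:8509360-8561606, GRCm38) stood at 3.13, 3.81, 1.94 and 0.775 RPKM in stem replicates 1 to 4. In progenitor it stood at 371.5, 214.1, 190.9 and 152.9 RPKM, and in niche at 122.4, 123.7, 59.8 and 100 RPKM. No groups overlapped: the lowest progenitor library lay above the highest niche library, and the highest stem library far below both. The means were 2.41 ± 1.34 in stem, 232.4 ± 96.1 in progenitor and 101.5 ± 29.8 RPKM in niche (SD, n = 4). The log2 difference was 6.11 ± 0.40 (SE) for progenitor minus stem, 1.16 ± 0.40 for progenitor minus niche and -4.95 ± 0.40 for stem minus niche. Stem libraries still held between 22 and 84 Stmn2 reads, so the gene was read in all 4 at a mean level above that of 26.4% of the genes tested.

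Stmn4 (ENSMUSG00000022044, chr14:66344296-66361680) read 9.29, 3.29, 1.75 and 1.12 RPKM in stem. It read 138.3, 61.5, 71.2 and 37.6 RPKM in progenitor and 92.1, 110.1, 67.4 and 80.6 RPKM in niche. Stem lay below both other populations, which overlapped with each other. The means were 3.86 ± 3.73, 77.1 ± 43.2 and 87.6 ± 18.1 RPKM (SD, n = 4) in stem, progenitor and niche. The log2 differences were 4.13 ± 0.49 (SE) for progenitor minus stem, -0.31 ± 0.49 for progenitor minus niche and -4.44 ± 0.49 for stem minus niche. The sign of the middle value depended on the scaling, since it was 0.33 when RPKM were scaled by library size alone. Stmn4 was the only one of the 5 whose mean was not highest in progenitor.

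The balance of the 2 neuronal stathmins in progenitor differed from that in stem and niche. Per library, the ratio of Stmn2 to Stmn4 RPKM had a median of 3.09 in progenitor (2.68 to 4.07), 1.18 in niche (0.887 to 1.33) and 0.90 in stem (0.337 to 1.16). The progenitor range did not meet the other ranges, which overlapped with each other. The stem ratios rest on 22 to 84 Stmn2 reads and 29 to 173 Stmn4 reads per library, and both genes were chosen for their rise over stem. Stmn1, the stathmin of dividing and immature cells in general, was far more abundant, at 1278.2 ± 287.4 RPKM in stem, 2096.1 ± 668.2 in progenitor and 810.8 ± 604.6 in niche (SD, n = 4). Its lowest progenitor library (1669.6 RPKM) lay above its highest stem library (1507.9 RPKM), a separation found for 13.2% of all genes. Stmn1 did not pass the test for progenitor minus stem, with a log2 difference of 0.70 ± 0.38 (SE) and an adjusted p of 0.393 (limma, Benjamini-Hochberg). Without niche replicate 1 its niche mean was 511.1 RPKM. Between progenitor and niche it was called higher in progenitor by 1.56 ± 0.38 (limma adjusted p = 0.0154), a call lost without niche replicate 3 (0.0522), without niche replicate 4 (0.054) and under median-of-ratios scaling (0.09). Stmn3 was not analysed here.

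Genes of several other cell types were also low in stem, among them those of oligodendrocytes, the myelin-forming cells, of which Car2 was among the 3 genes nearest to Stmn4 in pattern. Of 8 tested oligodendrocyte genes, 8 were called higher in progenitor than in stem, where 3.40% of all genes were, and 8 were called lower in stem than in niche (10.7% of all genes). The count of 8 for progenitor minus stem was 7 without any 1 of the 4 stem libraries, without progenitor replicate 1 or 3 and under median-of-ratios scaling. Between progenitor and niche limma called 0 of the 8 in either direction, with 0 at an unadjusted p under 0.05 and 0 by limma voom. The summed level of the list in stem was 217.2 to 767.2 RPKM, against 2588.0 to 7793.6 in progenitor libraries and 3177.8 to 8787.6 in niche libraries. Car2, a carbonic anhydrase abundant in oligodendrocytes, was higher in progenitor by 3.28 ± 0.40 (SE) on the log2 scale (limma adjusted p = 0.000165), and Cldn11, a tight junction protein of myelin, by 3.88 ± 0.69 (limma adjusted p = 0.00269). Astrocyte genes had 6 of 10 tested called higher in progenitor than in stem and 9 of 10 lower in stem than in niche, and genes of mural cells, which wrap small vessels, 4 of 7 and 6 of 7. Microglia and macrophage genes went the other way, with 8 of 8 called higher in stem than in progenitor (3.71% of all genes). The part of these cell types in the stathmin values was not tested.

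Within the populations the order of the libraries was shared in part. Stmn4, Car2 and Cldn11 ranked the stem replicates 1, 2, 3, 4 from highest to lowest and the progenitor replicates 1, 3, 2, 4. In niche the order of Stmn4 was 2, 1, 4, 3, as for Stmn2, while Car2 and Cldn11 gave 1, 2, 4, 3. These orders rest on 4 libraries each. Car2 was named for its nearness to Stmn4 over these same libraries, so that choice favoured a like order and the match is no separate support.

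**Figure D2:**
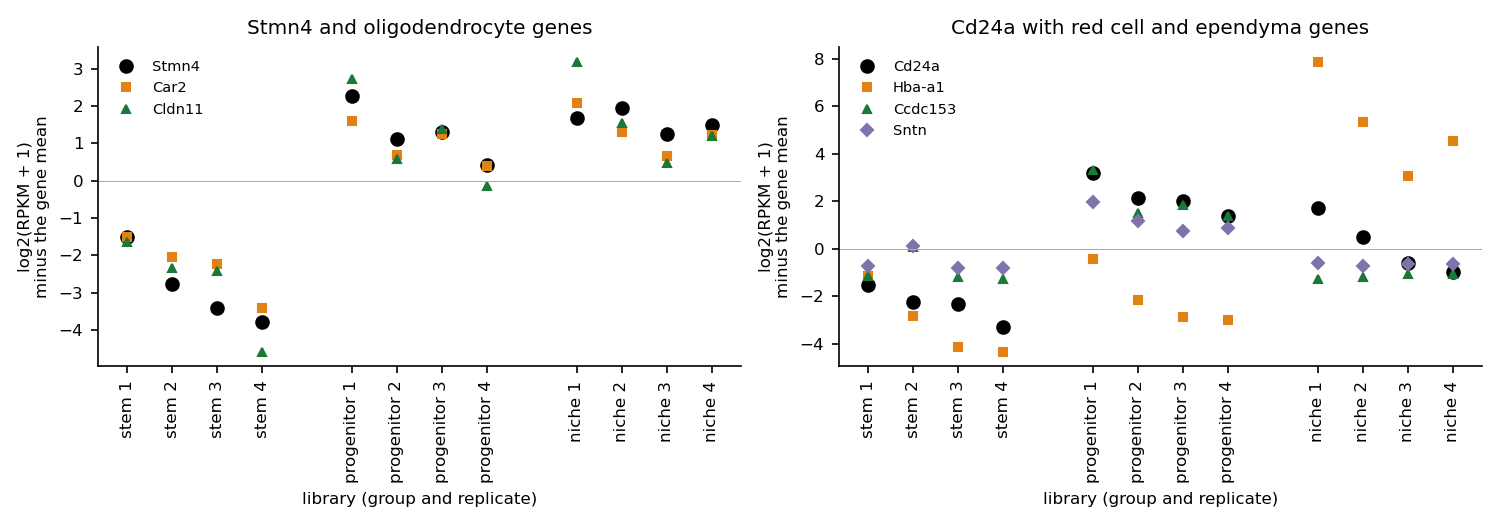
Centred log2(RPKM + 1) in each of the 12 libraries for Stmn4 with the oligodendrocyte genes Car2 and Cldn11 (left), and for Cd24a with the red cell gene Hba-a1 and the ependymal genes Ccdc153 and Sntn (right). Car2 was named for its nearness to Stmn4 over these same libraries. Each point is 1 library and 0 is the mean of the gene; all 3 genes on the left are lowest in stem, while on the right Hba-a1 is far higher in niche and the ependymal genes are higher in progenitor.

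Tubb3 (ENSMUSG00000062380, chr8:123411424-123422015) was the most abundant of the 5 genes in each population per length. It read 49.1, 25.9, 70.8 and 34.8 RPKM in stem and 1353.7, 616.7, 614.9 and 493.0 RPKM in progenitor. In niche it read 183.3, 99.0, 100.1 and 124.0 RPKM. The 3 populations did not overlap, and progenitor lay highest. The means were 45.2 ± 19.6, 769.6 ± 393.7 and 126.6 ± 39.5 RPKM (SD, n = 4) in stem, progenitor and niche. The log2 differences were 4.04 ± 0.37 (SE) for progenitor minus stem, 2.52 ± 0.37 for progenitor minus niche and -1.52 ± 0.37 for stem minus niche. At 45.2 RPKM the stem mean still lay above 83.2% of the genes tested, so Tubb3 was low in stem only beside its own level elsewhere.

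Other tubulins were read beside Tubb3. Of 7 tested, limma called 0 higher in progenitor than in stem, where 3.40% of all genes were. There were also 0 at an unadjusted p under 0.05 and 0 by limma voom. With 7 genes and that share, a count of 0 does not set the other tubulins apart. Tubb6, a beta-tubulin of broad expression, was the 1 gene called higher in stem, where 3.71% of all genes were. Tubb6 read 188.1 ± 23.3 RPKM in stem, 28.1 ± 8.71 in progenitor and 10.4 ± 8.74 in niche (SD, n = 4). Its log2 difference for progenitor minus stem was -2.73 ± 0.52 (SE; limma adjusted p = 0.00444) and for stem minus niche 4.48 ± 0.52 (limma adjusted p = 2.15e-05). Stem thus held more RNA of Tubb6 than of Tubb3, and progenitor more of Tubb3 than of Tubb6. Tuba1c, an alpha-tubulin, was the most abundant tubulin listed, at 3090.4 ± 602.2 RPKM in stem, 4283.8 ± 2465.0 in progenitor and 2493.4 ± 1654.9 in niche. Its log2 difference for progenitor minus stem was 0.35 ± 0.40 (limma adjusted p = 0.785). Differences of Tuba8, Tubd1, Tube1, Tubg1 and Tubg2 for progenitor minus stem were 0.21, -1.61, -0.71, -0.44 and 0.38, none of them called.

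Tac2 (ENSMUSG00000025400, chr10:127724478-127731768) had the largest difference between progenitor and niche of the 5 genes. It read 2.88, 0.889, 7.08 and 0.296 RPKM in stem, from 21, 7, 73 and 3 reads. In progenitor it read 276.9, 142.6, 123.3 and 107.9 RPKM, and in niche 2.03, 20.8, 4.33 and 3.10 RPKM, from 7, 223, 37 and 14 reads. Stem and niche overlapped, and every progenitor library lay above every other library. The means were 2.79 ± 3.07, 162.7 ± 77.5 and 7.56 ± 8.87 RPKM (SD, n = 4). Stem replicate 4 was at the limit that a count of 0 allows (3 reads), and niche replicate 2 carried most of the niche reads.

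On the log2 scale Tac2 differed by 5.69 ± 0.66 (SE) for progenitor minus stem, 4.63 ± 0.66 for progenitor minus niche and -1.06 ± 0.66 for stem minus niche. Tac1, the precursor of substance P and neurokinin A, had another pattern, with 0.227 ± 0.353 RPKM in stem, 1.0 ± 0.634 in progenitor and 8.50 ± 9.26 in niche (SD, n = 4). It differed by 0.68 ± 0.66 for progenitor minus stem (limma adjusted p = 0.733) and -1.66 ± 0.66 for progenitor minus niche (limma adjusted p = 0.119). Its difference of -2.34 ± 0.66 for stem minus niche was called (limma adjusted p = 0.0196) but not without stem replicate 3 (0.0526) or 4 (0.0555). Tacr2, a tachykinin receptor, was listed at 0 in all stem and niche libraries and averaged 0.608 RPKM in progenitor, and did not pass the filter on low values. Tacr1 and Tacr3 were not analysed here.

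Marker lists of other neurons had their highest sums in niche, where Tac2 was low. Cajal-Retzius cells, an early-born type at the dentate gyrus margin, had a summed level of 0.824 to 4.31 RPKM in the stem libraries, 6.85 to 12.5 in progenitor and 22.7 to 47.1 in niche over 4 genes. Of these, 1 of 4 tested (Nhlh2) was called higher in progenitor than in stem, where 3.40% of all genes were. Between progenitor and niche 2 of 4 were called higher in niche, where 5.76% of all genes were. The 5 interneuron genes listed summed to 3.89 to 8.46 RPKM in the stem libraries, 29.9 to 37.8 in progenitor and 38.1 to 162.3 in niche. Most of the progenitor sum was Cnr1, the cannabinoid receptor, at 25.9 to 34.4 RPKM. Of 4 tested, 1 was called higher in progenitor than in stem, where 3.40% of all genes were. That gene was Cnr1, by 2.69 ± 0.43 (SE, limma adjusted p = 0.00108). Between progenitor and niche limma called 0 of the 4 interneuron genes in either direction, where 11.4% of all genes were. Gad1, the enzyme that makes the transmitter GABA, read 1.34 RPKM in stem, 1.72 in progenitor and 25.0 in niche. Vip, an interneuron peptide, was listed at 0 in every stem and niche library. It averaged 1.64 ± 1.87 RPKM in progenitor (SD, n = 4), where its lowest value was 0. The part of interneurons in the Tac2 values was not tested.

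Cd24a (ENSMUSG00000047139, chr10:43578284-43584265) read 12.8, 7.29, 6.73 and 3.04 RPKM in stem. It read 353.9, 173.1, 158.2 and 101.1 RPKM in progenitor and 126.7, 54.0, 24.5 and 18.7 RPKM in niche. Stem lay below both others, and progenitor and niche overlapped through niche replicate 1, which was above the lowest progenitor library. The means were 7.47 ± 4.04, 196.6 ± 109.4 and 56.0 ± 49.6 RPKM (SD, n = 4), and without niche replicate 1 the niche mean was 32.4 RPKM. The log2 differences were 4.52 ± 0.56 (SE) for progenitor minus stem, 2.04 ± 0.56 for progenitor minus niche and -2.49 ± 0.56 for stem minus niche. Of 2510 windows of 50 bases in Cd24a transcripts, 69 (2.75%) also lay in another gene's transcripts, those of the gene Gm6212; the share was 0.893% for Stmn2 and 0 for the other 3 genes.

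Cd24a is also known from ependymal cells and blood cells. Ependymal genes, of the ciliated cells lining the ventricles, summed to 9.31 to 13.0 RPKM in the stem libraries, 32.7 to 105.9 in progenitor and 3.22 to 63.3 in niche over 7 genes, of which Tekt4 was listed at 0 in every stem library. Of 6 tested, 2 were called higher in progenitor than in stem (3.40% of all genes) and the same 2 against niche (5.66% of all genes). Ccdc153 differed by 2.87 ± 0.47 (SE, limma adjusted p = 0.00151) and 3.14 ± 0.47 (0.00043). Sntn, a ciliary tip protein, differed by 1.74 ± 0.36 (limma adjusted p = 0.00668) and 1.85 ± 0.36 (0.00306). Ccdc153 read 22.5, 5.76, 7.5 and 5.19 RPKM in progenitor replicates 1 to 4, so replicate 1 stood highest, as it did for Cd24a. The alpha-globin gene Hba-a1 read 491115.2 RPKM in niche replicate 1 and 17427.7 to 83610.5 in the other niche libraries. The 4 red cell genes listed summed to 223.5 to 2053.2 RPKM in the stem libraries, 575.2 to 3389.8 in progenitor and 37250.5 to 1076980.7 in niche. Cd24a and Hba-a1 ranked the replicates in the same order in stem and in progenitor (1, 2, 3, 4), and as 1, 2, 3, 4 and 1, 2, 4, 3 in niche. Alas2, a red cell enzyme of haem synthesis, gave the order 1, 2, 4, 3 in both stem and niche and 2, 1, 4, 3 in progenitor. The part of ependymal or red cells in the Cd24a values was not tested.

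Across the 4 progenitor libraries the 5 genes ranked alike. Replicate 1 was highest and replicate 4 lowest for all 5, and Stmn2, Tubb3, Tac2 and Cd24a had the order 1, 2, 3, 4. The depth ran the other way, from 14873117 reads in replicate 1 to 22854036 in replicate 4. Without replicate 1 the progenitor means were 186.0 RPKM for Stmn2, 56.7 for Stmn4, 574.9 for Tubb3, 124.6 for Tac2 and 144.1 for Cd24a, each still far above the stem mean. The part of library quality in this order was not tested.

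**Figure D3:**
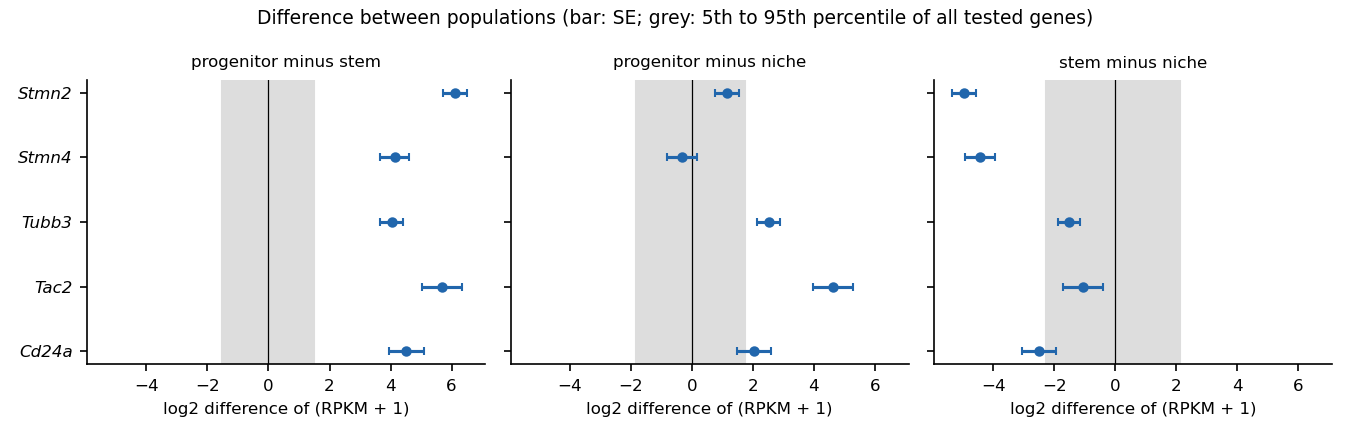
Log2 difference of (RPKM + 1) with SE for the 5 genes in the 3 comparisons, progenitor minus stem, progenitor minus niche and stem minus niche (n = 4 libraries a group). The grey band is the 5th to 95th percentile of the 8362 genes tested; all 5 lie above it for progenitor minus stem, Stmn2 and Stmn4 lie inside it for progenitor minus niche, and Tubb3 and Tac2 inside it for stem minus niche.

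The genes were also compared pair by pair over the 12 libraries. The measure was the root mean square difference of log2(RPKM + 1), after each gene was centred on its own mean, so that 0 is an identical pattern. Tubb3 and Cd24a were closest (0.76), followed by Stmn2 and Stmn4 (0.93), and Stmn4 and Tac2 were farthest apart (2.25). By group means Stmn2, Tubb3, Tac2 and Cd24a had the order progenitor, niche, stem, which 11.7% of genes had. Stmn4 had the order niche, progenitor, stem, which 28.2% had. Between stem and niche the libraries overlapped for Tac2 only, and between progenitor and niche for Stmn4 and Cd24a.

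Outside the 5 genes, the 3 tested genes with the most similar pattern to Stmn4 included Car2 (0.55) and Sept4 (0.55), against a median of 2.26 over all genes. The 3 nearest to Stmn2 included Sept4 (1.06) and Tspan2 (1.08), with a median of 2.8. Tubb3 was closest to Sema3c, a secreted guidance semaphorin (0.50), then 1500015O10Rik (0.65) and Cldn3 (0.71), with a median of 1.89. Cd24a was closest to Sema3c (0.55), Cox4i2 (0.64) and Galnt5 (0.64), with a median of 2.18. Tac2 had no close neighbour: its nearest were Pdlim3 (1.32), the matrix proteoglycan Dcn (1.37) and Cntnap2 (1.39), with a median of 2.70. These likenesses describe 12 libraries that share their scaling.

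The name of the set was checked against other genes of young neurons. A list of 26 young neuron markers had 7 in the table; Dcx and Neurod1, the markers most used for these cells, were not analysed here. Of the 7 tested, 2 were called higher in progenitor than in stem, where 3.40% of all genes were. These were Pcp4, a calmodulin-binding protein of neurons, and Gpm6a, a membrane protein of neurites. Summed RPKM of the 7 ran from 1128.9 to 2031.7 among stem libraries, from 2865.0 to 4640.9 among progenitor libraries and from 1912.0 to 3838.7 among niche libraries. Such sums are weighted toward the most abundant genes. By the mean log2 level of the 7, progenitor libraries (5.85 to 6.24) overlapped with niche libraries (5.9 to 6.15), and stem libraries lay lower (4.15 to 5.02). Against niche, limma called 1 of the 7 higher in progenitor and 1 lower, with a median log2 difference of -0.36. Mature neuron genes had their highest sums in niche, with values of 72.0 to 127.9 RPKM in the stem libraries, 215.8 to 285.4 in progenitor and 503.0 to 1439.9 in niche over 12 genes. The markers in the table thus bear on the name of the set only in part, and it is used here for the 5 genes as listed.

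Pcp4 read 11.5 ± 2.68 RPKM in stem and rose to 138.2 ± 54.7 in progenitor (SD, n = 4), by 3.44 ± 0.32 on the log2 scale (SE; limma adjusted p = 2.44e-05). In niche it read 213.7 ± 58.8 RPKM. Gpm6a rose from 187.3 ± 51.6 to 761.2 ± 196.5 RPKM, by 2.03 ± 0.29 (limma adjusted p = 0.000566), and read 1246.0 ± 283.4 in niche. Neither was called between progenitor and niche (limma adjusted p = 0.203 and 0.124). The 2 genes thus had the order of Stmn4 rather than that of Tubb3 or Tac2 by their means.

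For the wider pathway, 8 lists were read together without the 5 genes: stathmins, tubulins, microtubule binding proteins, tachykinins and their receptors, adhesion proteins, RNA-binding proteins, transcription factors and markers of young neurons. They name 140 genes, of which 65 were in the table and 61 were tested. Between progenitor and stem 5 of the 61 (8.20%) were called higher in progenitor and 1 (1.64%) higher in stem, against 3.40% and 3.71% of all genes, 7.10% in either direction. The median difference was 0.67 for the lists and 0.06 for all genes. The genes that rose were Pcp4, Gpm6a, Map6, which stabilises microtubules, and the neuronal transcription factors Nhlh2 and Tbr1. Tubb6 fell. The count of 5 was 3 without any 1 of the 4 stem libraries, 17 without niche replicate 1, 19 without progenitor 1 and niche 1 and 21 when only the 2 groups were fitted.

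Nhlh2 read 0.266 ± 0.113 RPKM in stem and 6.72 ± 2.30 in progenitor (SD, n = 4), a rise of 2.56 ± 0.56 on the log2 scale (SE; limma adjusted p = 0.00933). Tbr1 read 0.089 ± 0.103 and 4.17 ± 0.956 RPKM, a difference of 2.23 ± 0.56 (limma adjusted p = 0.0218). Map6 read 0.339 ± 0.144 and 4.70 ± 0.421 RPKM, a difference of 2.09 ± 0.51 (limma adjusted p = 0.0196). The means of these 3 genes lay below those of all 5 genes both in stem and in progenitor. Tbr1 no longer passed when stem replicate 1 was left out (limma adjusted p = 0.0667), 2 or 3 (0.0604 each) or 4 (0.0544), or progenitor replicate 1 (0.0743) or 3 (0.0585). Map6 no longer passed when stem replicate 1 (0.0553), 2 (0.0561), 3 (0.0624) or 4 (0.0537), or progenitor replicate 1 (0.0569) or 2 (0.0506), was left out.

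Between progenitor and niche 10 of the 61 genes (16.4%) were called higher in progenitor and 3 (4.92%) higher in niche. Of all genes 5.66% and 5.76% were, 11.4% in either direction, and scaling by library size alone turned this into 1525 and 314 genes. The median difference was 0.68 for the lists and 0.15 for all genes. The count of 10 was 6 without progenitor replicate 2, 3 or 4 or with only the 2 groups fitted, and 18 with library size alone. The count of 3 was 10 without niche replicate 1. The 2 largest differences in favour of progenitor were those of Eomes and Neurog2, factors of early neuronal commitment.

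Eomes, the transcription factor of intermediate progenitors, read 23.1 ± 5.74 RPKM in stem, 41.3 ± 7.03 in progenitor and 0.731 ± 0.414 in niche (SD, n = 4). It was higher in progenitor than in niche by 4.63 ± 0.39 on the log2 scale (SE; limma adjusted p = 4.19e-06), and was not called between progenitor and stem (0.82 ± 0.39, adjusted p = 0.287). Neurog2, a proneural factor, followed with 3.23 ± 0.40 (limma adjusted p = 7.22e-05) against niche and 0.04 ± 0.40 (0.981) against stem. Dpysl5, a collapsin response protein of growing axons, differed by 3.08 ± 0.47 against niche (limma adjusted p = 0.000455). Marcksl1 differed by 2.34 ± 0.46 (0.00365) and the transcription factor Tcf4 by 2.24 ± 0.40 (0.00166). Both Eomes and Neurog2 were also called higher in stem than in niche, by 3.80 ± 0.39 (limma adjusted p = 6.56e-06) and 3.18 ± 0.40 (3.9e-05). So were Dpysl5 by 1.78 ± 0.47 (limma adjusted p = 0.0136), Marcksl1 by 2.33 ± 0.46 (0.00206) and Tcf4 by 2.11 ± 0.40 (0.00139). By contrast, the stem means of all 5 genes of the set lay below their niche means.

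The 10 also included Crmp1, Ckap5, which lengthens microtubules, Tubb6 and Stmn1. Of these, Ckap5 and Tubb6 were also called higher in stem than in niche (limma adjusted p = 0.00195 and 2.15e-05). Crmp1 and Stmn1 were not (0.629 and 0.117). Between progenitor and niche Crmp1 differed by 2.21 ± 0.61 (SE, limma adjusted p = 0.027), Ckap5 by 1.5 ± 0.43 (0.0317) and Tubb6 by 1.75 ± 0.52 (0.042). Leaving out single libraries ended each of these calls. For Crmp1 the limma adjusted p was 0.0715, 0.0618, 0.0721 and 0.0518 without progenitor replicate 1, 2, 3 and 4 and 0.0615 without niche replicate 4. For Ckap5 it was 0.104, 0.103 and 0.121 without progenitor replicate 2, 3 and 4, and 0.0651, 0.0522 and 0.0712 without niche replicate 2, 3 and 4. For Tubb6 it was 0.0616, 0.0597, 0.0601 and 0.0609 without stem replicate 1, 2, 3 and 4, 0.0777, 0.0643, 0.0903 and 0.127 without progenitor replicate 1, 2, 3 and 4, and 0.0757 and 0.122 without niche replicate 1 and 2.

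The 3 genes higher in niche than in progenitor were adhesion or surface proteins of neurites. Cntn1, a contactin, differed by -3.53 ± 0.52 (SE; limma adjusted p = 0.000385), Plppr1 by -2.28 ± 0.59 (0.0201) and Cadm1 by -1.77 ± 0.37 (0.00579). With library size alone the adjusted p was 0.105 for Cadm1 and 0.0625 for Plppr1. Cd24a, the surface protein of the set, went the other way in its mean.

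Between stem and niche 9 of the 61 genes (14.8%) were called higher in stem and 11 (18.0%) higher in niche. Of all genes 10.9% and 10.7% were, 21.6% in either direction, and library size alone gave 2017 and 586 genes. The count of 11 was 25 without niche replicate 1, 7 without stem replicate 2 or 3 or niche replicate 2 or 3, and 6 without stem replicate 4. The adhesion list had 5 of its 7 tested genes higher in niche, and the microtubule binding list 4 of 22 higher in stem. The 3 comparisons share their libraries and are not independent of each other.

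**Figure D4:**
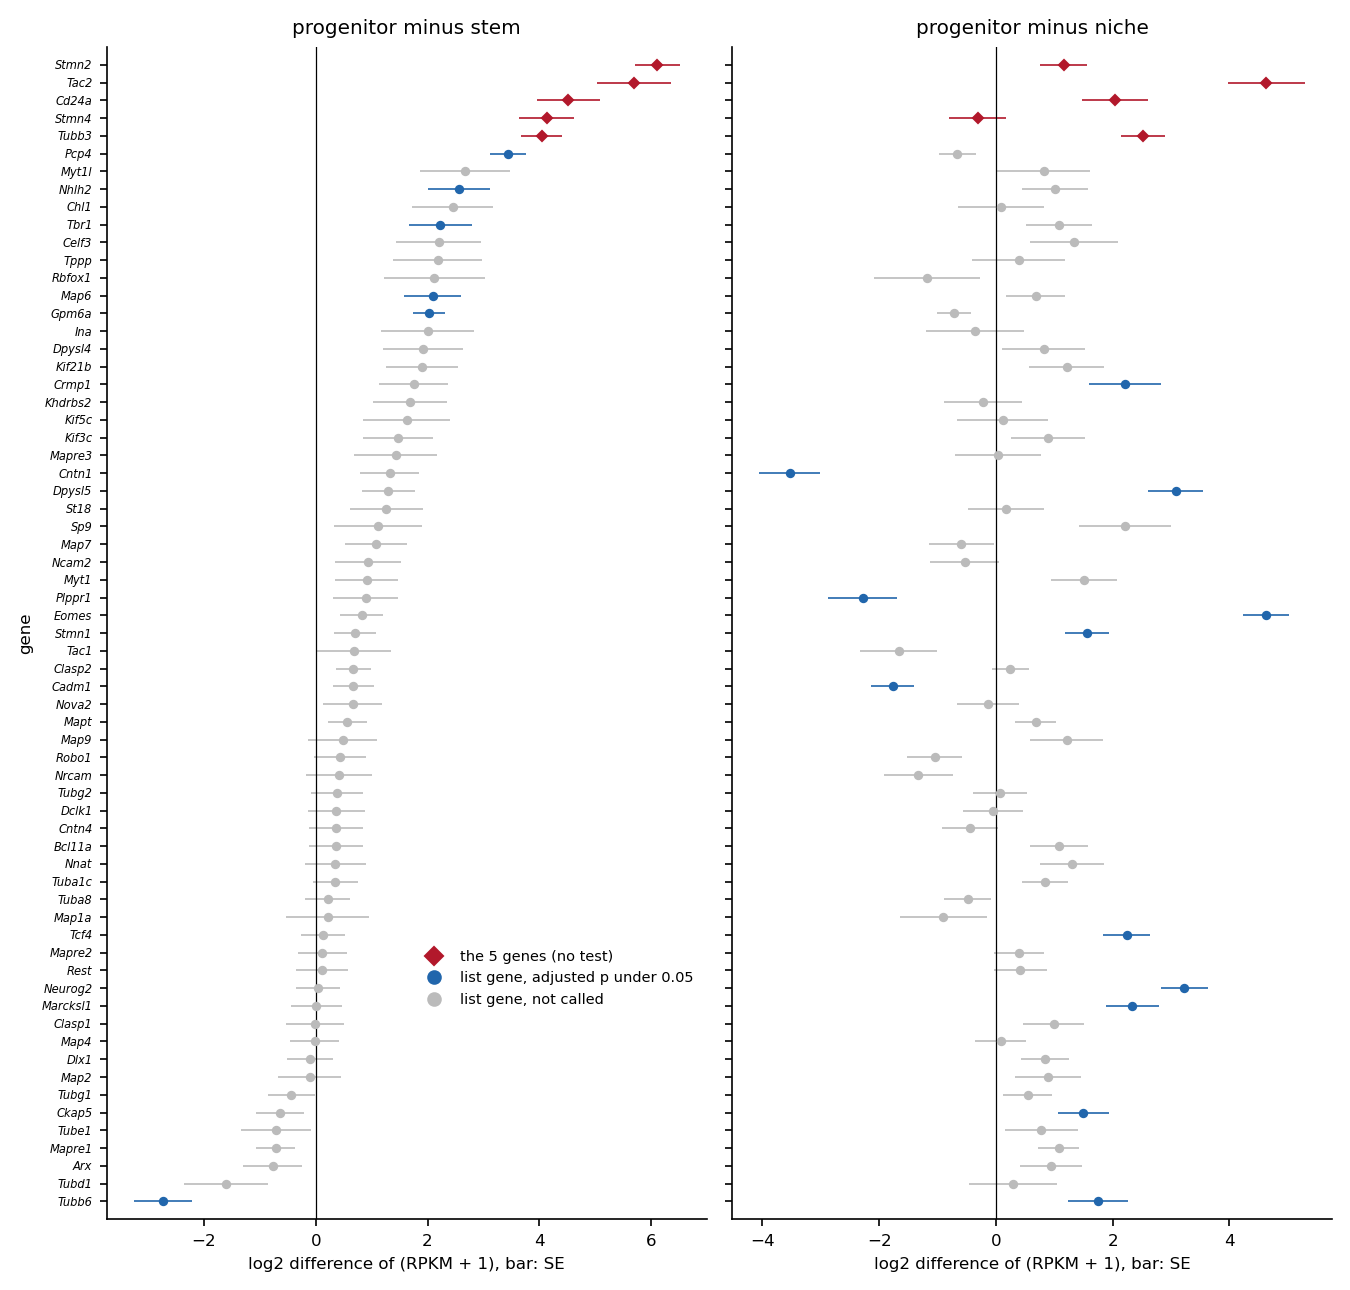
Log2 difference of (RPKM + 1) with SE for the 5 genes (diamonds) and 60 of the 61 tested genes of the young neuron lists (circles, blue where the limma adjusted p was under 0.05), for progenitor minus stem (left) and progenitor minus niche (right), n = 4 libraries a group. Genes are sorted by the left panel; the 5 genes lie above every list gene on the left, where 5 list genes were called higher and 1 lower, and are spread among them on the right.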

How the data were processed

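The authors deposited 1 table for the 12 libraries, with values on a log2 scale that were read as log2(RPKM + 1). The genome build was GRCm38 (mm10), per the submitters' processing notes; no aligner, counter or strand setting was given in the sources used here. No batch or date is in the labels. Whole reads were recovered from the values within a tolerance of 1e-05 reads, and served for scaling and depth. The filter asked for 10 reads, scaled to the median library (a CPM of 0.767), in 4 or more libraries and 15 reads in total. TMM factors trimmed 30% of ratios and 5% of levels. limma 3.58.1 (R 4.3.3), with an intensity trend and robust spread, fitted 1 mean per group to log2(TMM-scaled RPKM + 1) over 12 libraries (Benjamini-Hochberg adjustment, threshold 0.05). Fold changes on this scale understate those of low genes. The fit was tested on simulated data. The 5 genes, the 22 gene lists and the tests were chosen with earlier results of these data known. Named list genes were up to 4 per list with the largest difference among those called, all tested genes of lists of 6 or fewer and of the tubulins, and, per gene of the 5, the 3 nearest in pattern; some genes the rule named are not reported here, and Gad1, Vip, Hba-a1 and Alas2 were added after their values were seen. Alternatives were other scaling, pseudocounts, no filter, fewer libraries, a replicate block and limma voom on the recovered reads.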

Additional observations from a re-analysis of the deposited data

How the results depend on the processing

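Leaving out single libraries, genes called ranged from 355 (without stem replicate 2) to 1093 (without niche replicate 1) for progenitor minus stem, from 534 (without progenitor replicate 3) to 1639 (without niche replicate 1) for progenitor minus niche and from 1271 to 2489 for stem minus niche. Young neuron list genes ranged from 3 to 17 higher and 1 to 2 lower in progenitor than in stem, 6 to 10 higher and 3 to 10 lower than in niche, and from 8 to 11 higher and 6 to 25 lower in stem than in niche. Fitting only the 2 groups gave 1419 genes for progenitor minus stem (list genes 21 higher, 2 lower) and 538 for progenitor minus niche (6 list genes higher), and 7 list genes lower in stem than in niche. Without progenitor 1 and niche 1 there were 1116 (19 list genes higher, 2 lower), 1986 (10 lower) and 2997 (14 higher, 25 lower). Library size alone gave 1839 genes for progenitor minus niche (list genes 18 higher, 1 lower) and 16 list genes higher and 7 lower in stem than in niche. It moved the median of all genes from 0.15 to 0.62 and from 0.09 to 0.58 in the niche comparisons. There Stmn2 differed by 1.81 and -4.34, Tubb3 by 3.17 and -0.83, and Stmn4 for progenitor minus niche changed sign to 0.33. A pseudocount of 4 gave Stmn2 5.15 and -4.01 against stem and for stem minus niche, Stmn4 -3.63 for stem minus niche and Tac2 4.62 for progenitor minus stem. voom gave Stmn2 6.71 for progenitor minus stem and -5.55 for stem minus niche. No other alternative moved a difference of the 5 genes by more than its spread, and the cause of these shifts was not tested.

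Replicate numbers are shared by the labels. The deviations of same-numbered libraries correlated at -0.128 to 0.206, with 2 of 12 pairs over 0.1. Pairs with other numbers gave -0.191 to 0.142, with 4 of 36 over 0.1. The 2 highest values were those of progenitor and niche replicate 3 (0.206) and replicate 1 (0.166). Libraries were not treated as pairs, and whether those with the same number share an origin is not in the labels. With the replicate number as a block, 607 genes were called for progenitor minus stem, 949 for progenitor minus niche and 1814 for stem minus niche.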
